A study of Sus scrofa with 20 samples.

Results

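The 10 genes described here take part in mitochondrial uncoupling and heat production, and their RNA was followed in the backfat and liver of Nanchukmacdon pigs. They were listed by symbol and matched to the Ensembl gene identifiers of a table of RNA-seq read counts: the uncoupling proteins UCP2 and UCP3, the coactivators PPARGC1A and PPARGC1B, the mitochondrial transcription factor TFAM, the transcriptional regulator PRDM16, the thyroid hormone deiodinase DIO2, the creatine kinases CKB and CKMT2, and the calcium pump ATP2A2. All 10 had an identifier among the 31907 genes of the table, and all 10 passed the filter on low counts that left 16275 genes to be tested.

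The study compared backfat, the subcutaneous fat layer of the back, with liver in 5 boars of the Nanchukmacdon breed, a cross that carries Jeju native black pig ancestry. The labels describe every sample as wild type and normal, from animals of 22 months, with no treatment. Poly(A) RNA gave 5 libraries per tissue, and both tissues came from the same boars, which are numbered 65, 67, 69, 71 and 72 in the names of the count columns. Methylation calls from bisulfite sequencing of the same tissues carry no genomic position and were not used here.

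Brown and beige fat make heat by letting protons leak back into the mitochondrion through UCP1, a carrier protein of the inner membrane, and the pig lineage has lost a functional UCP1. Other routes have been described, among them a cycle of creatine phosphorylation and dephosphorylation and a cycle in which the pump encoded by ATP2A2 returns leaked calcium to the endoplasmic reticulum. PGC-1 alpha and PGC-1 beta, the products of PPARGC1A and PPARGC1B, switch on genes for mitochondria and respiration, while PRDM16 steers cells to the brown fat fate. In liver PGC-1 alpha is better known for the response to fasting, where it raises glucose production. UCP1 was not analysed here, because no identifier in the gene name table carries that symbol.

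Gene positions are those of RefSeq on Sscrofa11.1, the build of the count table. UCP2 (chr9:8358559-8364552) and UCP3 (chr9:8378023-8389452) are neighbours on the minus strand, 13470 bases apart. PPARGC1A lies at chr8:17841844-18527953 on the minus strand, PPARGC1B at chr2:150823338-150924871 on the plus strand and PRDM16 at chr6:64704181-65012580 on the plus strand. DIO2 is at chr7:103096414-103110749 (minus), CKMT2 at chr2:89796470-89830293 (plus), TFAM at chr14:92261713-92279731 (minus) and ATP2A2 at chr14:31674659-31744981 (plus), and CKB is on an unplaced scaffold. Reads were counted without regard to strand, and RefSeq gives UCP2 59 exon bases that overlap DNAJB13 on the other strand and ATP2A2 253 that overlap ANAPC7. Reads over several genes were left out by the counting.

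The 250 bases before the transcript start are shown for 3 genes: PPARGC1A, the member with the largest difference towards liver, and UCP3 and CKB, whose windows hold the letters TATAAA. Each is written 5′ to 3′ on the strand of its gene. Capitals mark matches to the letters of the TATA box (TATAAA), the GC box (GGGCGG, on either strand) and the cAMP response element or CRE (TGACGTCA). Whether any match is used was not tested. The windows are chr8:17946935-17947184 (minus) for PPARGC1A, chr9:8389453-8389702 (minus) for UCP3, and bases 2074142 to 2074391 (minus) of the unplaced scaffold for CKB.
PPARGC1A: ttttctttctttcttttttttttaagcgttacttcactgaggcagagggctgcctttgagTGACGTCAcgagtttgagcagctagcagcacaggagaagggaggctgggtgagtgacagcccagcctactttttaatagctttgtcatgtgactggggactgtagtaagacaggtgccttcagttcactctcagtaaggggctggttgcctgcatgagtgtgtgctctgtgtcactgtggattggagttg
UCP3: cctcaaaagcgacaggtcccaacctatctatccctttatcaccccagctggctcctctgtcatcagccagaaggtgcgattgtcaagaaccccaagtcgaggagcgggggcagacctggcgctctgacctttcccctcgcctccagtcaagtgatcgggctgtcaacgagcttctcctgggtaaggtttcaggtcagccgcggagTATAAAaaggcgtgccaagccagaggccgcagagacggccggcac
CKB: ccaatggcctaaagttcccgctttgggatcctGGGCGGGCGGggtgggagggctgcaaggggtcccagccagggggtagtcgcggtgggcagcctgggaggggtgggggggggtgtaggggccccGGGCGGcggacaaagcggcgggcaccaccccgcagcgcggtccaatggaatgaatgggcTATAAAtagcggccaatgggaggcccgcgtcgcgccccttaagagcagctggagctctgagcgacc

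In the PPARGC1A window a whole CRE starts 190 bases before the transcript, a match that 1.66% of 20638 pig promoter windows of the same length hold on either strand. This window has 3 CpG sites and 48.8% G and C. RefSeq lists 7 transcripts of PPARGC1A, some with other starts, and the counts do not tell which start was used. The median of all windows is 11 CpG sites. GC boxes occur in 45% of windows and TATAAA in 10.5%. TATAAA starts 45 bases before the UCP3 transcript and 66 bases before the CKB transcript, and the CKB window also holds 3 GC boxes, of which the first pair overlap. Of the windows not shown, those of DIO2, CKMT2 and UCP2 hold 1, 2 and 6 CpG sites, and those of TFAM, PRDM16 and ATP2A2 hold 16, 24 and 32. Among the 9 windows described, the 3 with the fewest CpG sites belong to DIO2, CKMT2 and PPARGC1A, which are also the 3 members with the largest differences towards liver. This was noticed after the values were seen and was not tested. The differences of TFAM and ATP2A2 also went towards liver, and their windows hold more CpG sites than the median of all windows. The UCP3 and CKB windows hold 14 and 19 CpG sites. The windows of PPARGC1A, CKMT2 and ATP2A2 lie inside the spans of their genes, that of CKMT2 at chr2:89813891-89814140. RefSeq lists 2 transcripts for each of CKMT2 and ATP2A2, and windows at other starts were not counted.

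The libraries held between 43820042 and 61772737 counts. Levels are given as CPM, the count of a gene relative to the total of its library, after TMM scaling, which sets libraries on a common footing by the bulk of their genes. Adipocyte markers summed to between 12824 and 16132 CPM in backfat and between 11.3 and 17.7 CPM in liver. Hepatocyte markers summed to between 171 and 577 CPM in backfat and between 30949 and 103840 CPM in liver. Each tissue thus carried the markers of its label. Most of the hepatocyte sum in every backfat library was APOA1, at 167 to 482 CPM. The liver library of boar 67 (liver 67) stood apart. The 13 protein genes of the mitochondrial genome took 44.5% of its counts against 6.38% to 20.2% in the other 9 libraries. Its 8 skeletal muscle markers summed to 214 CPM, where the other liver libraries reached at most 5.69 CPM, and its hepatocyte markers had the lowest sum of the liver libraries, although GCGR was highest there. Among backfat libraries, that of boar 69 had the most hepatocyte marker RNA, and the skeletal muscle markers ran from 14.3 CPM in boar 72 to 428 CPM in boar 65. The part of these differences in the results below was not tested, and values without liver 67 are given beside each of the 10 genes.

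Tissues were compared with edgeR's quasi-likelihood test across all 16275 genes, and p-values were adjusted by the Benjamini-Hochberg method. The threshold for passing was an adjusted p no higher than 0.05, and a passing gene with a log2 fold change of 2 or more in size was called a differentially expressed gene (DEG). Positive log2 fold changes mean higher in backfat. Of the 10 members 8 passed the test, where 55.0% of all tested genes did. Passing members were higher in backfat in 3 cases (UCP3, UCP2 and PPARGC1B), against 28.0% of all genes, and higher in liver in 5 (PPARGC1A, DIO2, CKMT2, ATP2A2 and TFAM), against 27.0%. There were 5 DEGs among the members, where 22.3% of all tested genes were DEGs. UCP3 and UCP2 were DEGs towards backfat, as were 11.1% of all genes, and PPARGC1A, DIO2 and CKMT2 towards liver, as were 11.2%. The median absolute log2 fold change was 1.88 over the members and 0.81 over all tested genes. PRDM16 and CKB did not pass. In bulk tissue a lower level can mean fewer cells of a type or less RNA per cell, which cannot be told apart.

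**Figure D1:**
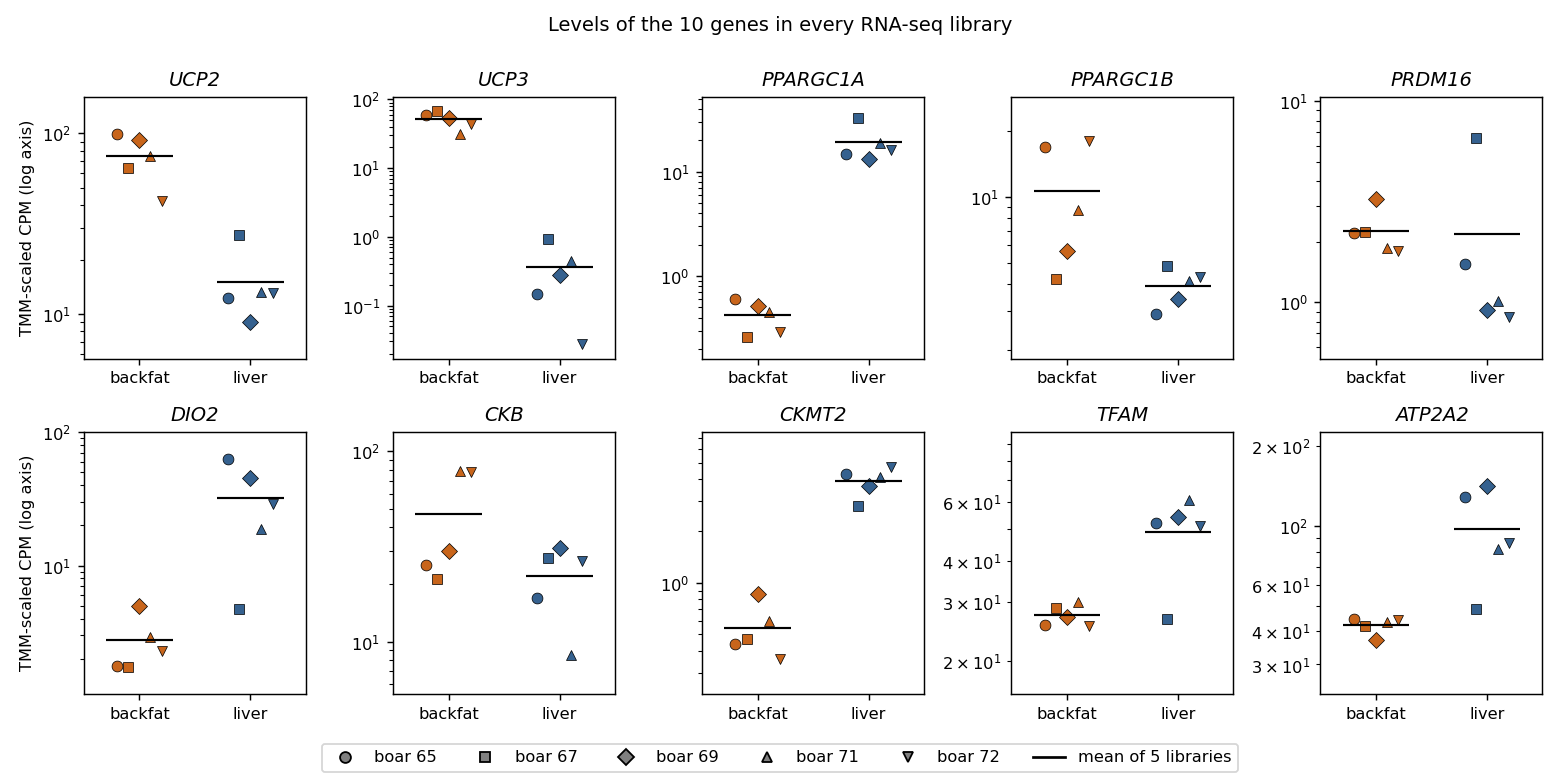
TMM-scaled CPM (log axis) of each of the 10 genes in the 5 backfat and 5 liver libraries, with a marker shape for each boar and a line at the mean of the 5 libraries. UCP2, UCP3, PPARGC1A, CKMT2 and ATP2A2 have no overlap between tissues. The square for boar 67 is the highest or lowest of the liver points in 9 of the 10 panels. The shares of all tested genes that do the same were not counted.

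The difference of UCP3 was the largest of the 10 in size, and that of UCP2 was smaller. UCP3, a carrier best known from skeletal muscle, where it is tied to fatty acid use, was abundant in backfat and nearly missing from liver. Its level was 60.3, 68.6, 54.0, 31.9 and 43.3 CPM in the backfat of boars 65, 67, 69, 71 and 72, and 0.15, 0.95, 0.28, 0.44 and 0.027 CPM in their livers. The lowest backfat library lay far above the highest liver library, which was liver 67. The liver values rest on 6, 35, 13, 14 and 1 counts, so the backfat level is much better determined than the ratio. UCP3 was 141-fold higher in backfat. Its log2 fold change was 7.14 ± 0.58 (SE), with a 95% interval of 5.87 to 8.41 (edgeR quasi-likelihood test, adjusted p = 6.46e-07). Without liver 67 the log2 fold change was 7.83 ± 0.49.

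Because UCP3 is a muscle gene by reputation, it was set beside the skeletal muscle markers of the same libraries. Across backfat libraries ACTA1, the actin of skeletal muscle fibres, was 299, 72.1, 99.4, 14.8 and 2.98 CPM in boars 65, 67, 69, 71 and 72, and UCP3 varied by a factor of 2.15 from lowest to highest. The backfat libraries of boars 71 and 72 had the fewest skeletal muscle markers and also the lowest UCP3, at 31.9 and 43.3 CPM against 54.0 to 68.6 CPM in the others. The level of UCP3 was 0.20 times that of ACTA1 in the backfat of boar 65 and 14.5 times in that of boar 72. Liver 67 held 106 CPM of ACTA1 but 0.95 CPM of UCP3. The part of skeletal muscle RNA in the UCP3 level was not tested.

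**Figure D2:**
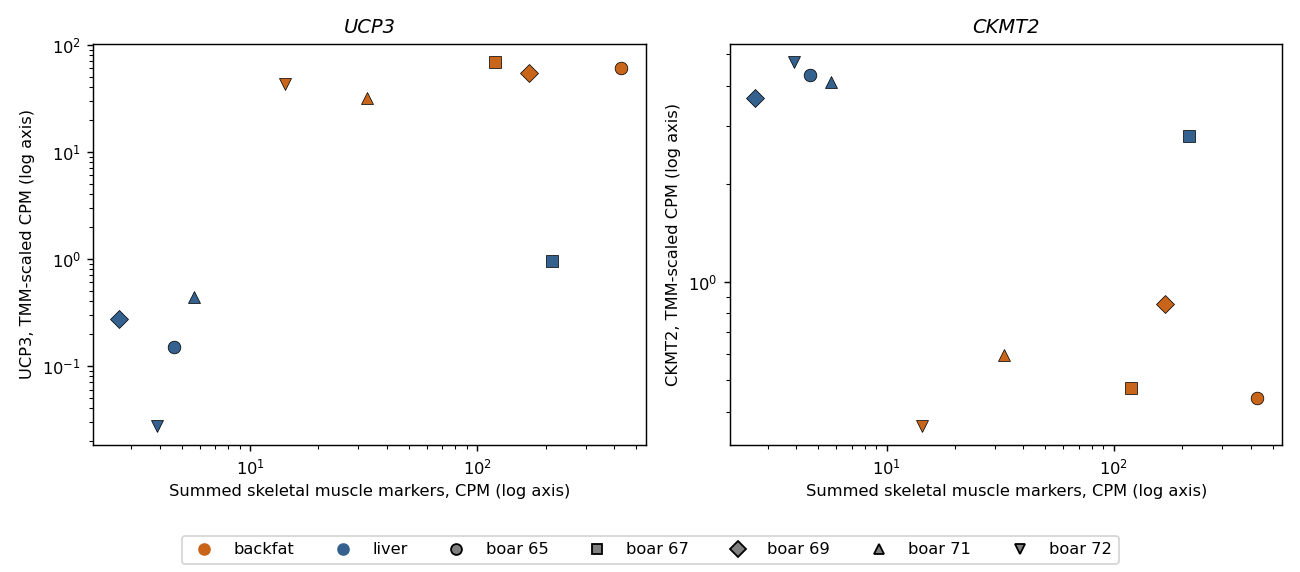
UCP3 (left) and CKMT2 (right), in TMM-scaled CPM, against the summed CPM of the 8 skeletal muscle markers in the same library, on log axes, with 1 point per library. In backfat the marker sum runs from 14.3 to 428 CPM and UCP3 from 31.9 to 68.6 CPM, with its 2 lowest values in the 2 libraries of lowest marker sum, and CKMT2 lies between 0.36 and 0.86 CPM. Liver 67, with 214 CPM of markers, has 0.95 CPM of UCP3.

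UCP2, the widely expressed relative that transports small acids across the inner membrane, was higher in backfat as well but present in both tissues. It measured 99.7, 64.4, 92.1, 74.4 and 42.4 CPM in backfat and 12.2, 27.5, 9.07, 13.2 and 13.1 CPM in liver, in the order of boars 65, 67, 69, 71 and 72. All backfat libraries were above all liver libraries, and liver 67 was the highest of the livers by a wide gap. The difference was 4.97-fold, a log2 fold change of 2.31 ± 0.32 (edgeR quasi-likelihood test, adjusted p = 5.46e-05), and 2.61 ± 0.25 without liver 67. Per kilobase of exon, UCP3 stood at between 0.36 and 0.89 of the level of UCP2 in the backfat libraries and at no more than 0.029 of it in the liver libraries.

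Of 8 listed relatives of the uncoupling proteins in the mitochondrial carrier family 5 were tested. Of these 1 passed higher in backfat, 2 passed higher in liver and 2 did not pass. Shares of all tested genes, for this and each later list, were 28.0% higher in backfat and 27.0% higher in liver. SLC25A27, also called UCP4 and mostly known from brain, was 22.4 ± 4.04 CPM in backfat and 207 ± 23.9 CPM in liver (SD, n = 5), a log2 fold change of -3.21 ± 0.19 (edgeR adjusted p = 3.99e-08). The ADP/ATP carriers went different ways. SLC25A4, the form of muscle and heart, had a log2 fold change of -2.20 ± 0.38 (edgeR adjusted p = 3.73e-04), SLC25A6 was higher in backfat at 1.32 ± 0.23 (edgeR adjusted p = 3.68e-04), and SLC25A5 had -0.17 ± 0.37 and did not pass (edgeR adjusted p = 0.713).

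PPARGC1A and PPARGC1B passed the test in opposite directions. PPARGC1A was 0.61, 0.26, 0.52, 0.45 and 0.29 CPM in the backfat of boars 65, 67, 69, 71 and 72 and 14.9, 32.7, 13.4, 18.6 and 16.0 CPM in liver. The backfat libraries held between 17 and 54 counts each, and all of them lay far below every liver library. The level was 44.3-fold higher in liver, a log2 fold change of -5.47 ± 0.36 with a 95% interval of -6.25 to -4.69 (edgeR quasi-likelihood test, adjusted p = 1.14e-07). Liver 67 was the highest of the 5, and without it the log2 fold change was -5.23 ± 0.29.

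PPARGC1B was 16.8, 4.20, 5.67, 8.67 and 17.9 CPM in backfat and 2.92, 4.81, 3.40, 4.11 and 4.31 CPM in liver, in the same order of boars. Boars 65 and 72 were high in backfat, the range there was 4.28-fold, and the backfat of boar 67 fell among the liver libraries. The mean difference was 2.73-fold towards backfat, which was higher in 4 of 5 boars, with a log2 fold change of 1.45 ± 0.39 (edgeR quasi-likelihood test, adjusted p = 0.0069) and 1.50 ± 0.43 without liver 67. The 2 genes were also set against each other within each library. This ratio carries the PPARGC1A difference, so it adds nothing to the evidence for a PPARGC1B difference. Per kilobase of exon the level of PPARGC1B was between 16.5 and 93.1 times that of PPARGC1A in backfat, and between 0.22 and 0.41 times in liver. Taking the longest RefSeq transcript as the length instead gave 10.2 to 57.7 in backfat and 0.14 to 0.25 in liver.

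**Figure D3:**
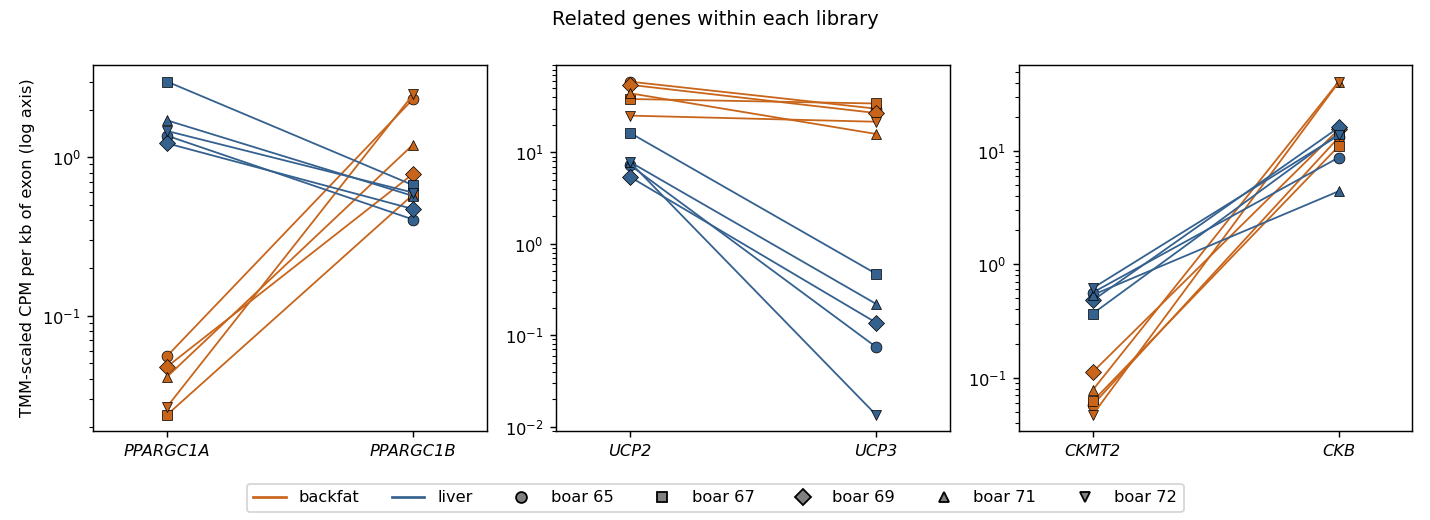
Levels per kilobase of exon (TMM-scaled CPM per kb, log axis) of 3 pairs of related genes, with a line joining the 2 genes within each library. Every backfat line rises from PPARGC1A to PPARGC1B and every liver line falls, UCP3 drops away from UCP2 in liver, and CKB exceeds CKMT2 in all 10 libraries.

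The coactivators work through nuclear receptors and other factors, and of 21 tested partners and regulators 7 passed higher in backfat, 2 passed higher in liver and 12 did not pass, with a median log2 fold change of 0.44. When counts were scaled by library size alone, without TMM, 15 passed higher in backfat and 2 higher in liver, where 50.5% and 14.3% of all tested genes did. PPARG, the receptor that drives fat cell formation and which also stands in the adipocyte marker list, was 161 ± 34.4 CPM in backfat and 0.74 ± 0.58 CPM in liver, a log2 fold change of 7.78 ± 0.52 (edgeR adjusted p = 1.22e-07). PPARA, the receptor of fatty acid oxidation in liver, had -2.08 ± 0.46 (edgeR adjusted p = 0.00206). ESRRG and MEF2C were higher in backfat, at 2.90 ± 0.57 and 2.05 ± 0.31, and NRF1, a driver of nuclear genes for respiration, at 0.58 ± 0.15 (edgeR adjusted p = 8.97e-04, 1.33e-04 and 0.00466). ESRRA, the orphan receptor most often paired with PGC-1 alpha in regulating respiration, had -0.71 ± 0.33 and did not pass (edgeR adjusted p = 0.0894). It passed without liver 67, at -0.89, and without the liver of boar 71, at -0.92 (edgeR adjusted p = 0.0257 and 0.0185).

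TFAM, which packs mitochondrial DNA and starts its transcription, was even across backfat and higher in liver. Its backfat level was 25.7, 28.9, 27.1, 30.0 and 25.4 CPM in boars 65, 67, 69, 71 and 72, and its liver level 52.0, 26.8, 54.1, 61.0 and 50.8 CPM. The overlap came from liver 67 alone, since the other livers lay at 50.8 CPM or more. TFAM was 1.79-fold higher in liver, a log2 fold change of -0.84 ± 0.20 (edgeR quasi-likelihood test, adjusted p = 0.00333), and -1.03 ± 0.13 without liver 67. Scaling by library size alone, which moved the median of all genes by 0.72 on the log2 scale towards backfat, left -0.13, short of the threshold (edgeR adjusted p = 0.642).

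Among 19 other tested genes of mitochondrial DNA upkeep and transcription, 8 passed higher in liver, 2 passed higher in backfat and 9 did not pass, and the median log2 fold change was -0.33. With library size alone 3 passed higher in liver and 6 higher in backfat, where 14.3% and 50.5% of all tested genes did. That scaling moved the median of all genes by 0.72 towards backfat. TWNK, the helicase of the mitochondrial replisome, had a log2 fold change of -1.60 ± 0.21, TFB2M, the second transcription factor TFAM works with, -1.35 ± 0.19, and SSBP1, the single-strand binding protein, -1.18 ± 0.15 (edgeR adjusted p = 3.71e-05, 6.13e-05 and 2.44e-05). POLRMT, the mitochondrial RNA polymerase, had -0.78 ± 0.20 (edgeR adjusted p = 0.0047), and with library size alone -0.07, which did not pass (edgeR adjusted p = 0.804). The exceptions were TOP1MT, the mitochondrial topoisomerase, at 2.83 ± 0.48, and the nuclease and helicase gene DNA2 at 1.45 ± 0.29 (edgeR adjusted p = 3.02e-04 and 0.00104), and TOP1MT was 3.49 without liver 67. The transcripts of the mitochondrial genome itself summed to between 51414 and 128130 CPM in backfat and between 72893 and 312320 CPM in liver without liver 67, so the ranges overlapped.

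PRDM16 was low in both tissues and its comparison hung on a single library. It was 2.21, 2.24, 3.25, 1.86 and 1.80 CPM in the backfat of boars 65, 67, 69, 71 and 72 and 1.55, 6.59, 0.91, 1.01 and 0.84 CPM in liver. Liver 67 was more than any backfat library, whereas the other 4 livers were all below every backfat library. With all 10 libraries the log2 fold change was 0.06 ± 0.56, with a 95% interval of -1.15 to 1.27, and did not pass (edgeR quasi-likelihood test, adjusted p = 0.935). Without liver 67 it was 1.03 ± 0.30 and passed (edgeR quasi-likelihood test, adjusted p = 0.0109).

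Tested PRDM16 partners and genes used as brown or beige fat markers numbered 24. Of these 7 passed higher in backfat, 7 passed higher in liver and 10 did not pass, where 28.0% and 27.0% of all tested genes passed. With library size alone the counts were 10 and 4, where 50.5% and 14.3% of all tested genes passed. Another 9 of the 36 listed, CIDEA among them, were not matched by symbol. EBF2, a factor that selects the brown fat lineage in precursor cells, was 52.8 ± 2.44 CPM in backfat, with a single count in 1 liver library and none in the other 4. ZIC1, used as a marker of brown fat from the back of the mouse, was 4.23 ± 1.82 CPM in backfat and had no count in liver, at least 272-fold higher in backfat when 3 counts over the liver group are taken as the floor. SLC36A2, an amino acid transporter of brown and beige fat cells, was 43.0 ± 4.84 CPM in backfat and 0.39 ± 0.20 CPM in liver (SD, n = 5). MPZL2, a brown fat marker in cell studies, had the largest difference of the 7 genes that passed higher in liver. It was 0.20 ± 0.13 CPM in backfat and 11.8 ± 4.20 CPM in liver. Of this list 6 genes were DEGs towards backfat and 4 towards liver. Besides MPZL2, those towards liver were KCNK3, TNFRSF9 and FGF21, with log2 fold changes of -4.20, -3.72 and -2.68. KCNK3 was at most 0.85 CPM in any library. Of the beta-adrenergic receptors through which noradrenaline starts heat production, ADRB1 had a log2 fold change of 3.61 ± 0.47 (edgeR adjusted p = 3.51e-05), and ADRB3 was at most 0.56 CPM in backfat and 0.62 CPM in liver and did not pass (edgeR adjusted p = 0.454).

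DIO2, the enzyme that turns thyroxine into the active hormone inside brown fat and other cells, was higher in liver. Its level was 1.77, 1.74, 4.98, 2.90 and 2.30 CPM in backfat and 62.8, 4.73, 45.0, 19.0 and 29.2 CPM in liver, for boars 65, 67, 69, 71 and 72. Liver was higher within each boar, and the tissues overlapped only because liver 67, the lowest liver, was just under the backfat of boar 69, the highest backfat. That backfat library also had the most hepatocyte marker RNA of the 5, with 36.4 CPM of albumin (ALB) where the others had at most 0.35 CPM. DIO2 was 0.137 times the level of ALB there and at most 0.0022 times in the liver libraries. The part of liver RNA in this DIO2 level was not tested. The difference was 11.8-fold, a log2 fold change of -3.56 ± 0.58 with a 95% interval of -4.83 to -2.29 (edgeR quasi-likelihood test, adjusted p = 2.31e-04). It was -3.87 ± 0.40 without liver 67, and -4.17 ± 0.38 without liver 67 and the backfat of boar 69. Liver levels of DIO2 ranged from 19.0 to 62.8 CPM even without liver 67.

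Of 15 tested genes in the rest of the thyroid hormone list 5 passed higher in backfat, 4 higher in liver and 6 did not pass. With library size alone 7 and 2 passed, where 50.5% and 14.3% of all tested genes did. DIO1, the main deiodinase of liver, was 182 ± 81.8 CPM there and 0.70 ± 0.27 CPM in backfat (SD, n = 5), a log2 fold change of -8.03 ± 0.50 (edgeR adjusted p = 7.22e-08). DIO3, which inactivates the hormone, had 0.06 ± 0.34 (edgeR adjusted p = 0.893). The receptor of thyrotropin, TSHR, was 4.91 ± 2.14 CPM in backfat without a count in liver, at least 315-fold higher on the same floor. TG, the thyroglobulin gene, had -2.70 ± 0.47 from levels below 3 CPM (edgeR adjusted p = 3.63e-04). THRB, a receptor of the hormone, had 0.67 ± 0.27 and did not pass (edgeR adjusted p = 0.05002), but passed under 6 alternatives: library size alone (1.35), limma-voom (0.73), no filter (0.72), at least 10 counts in every library (0.67), and without the backfat of boar 72 (0.75) or the liver of boar 69 (0.89).

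**Figure D4:**
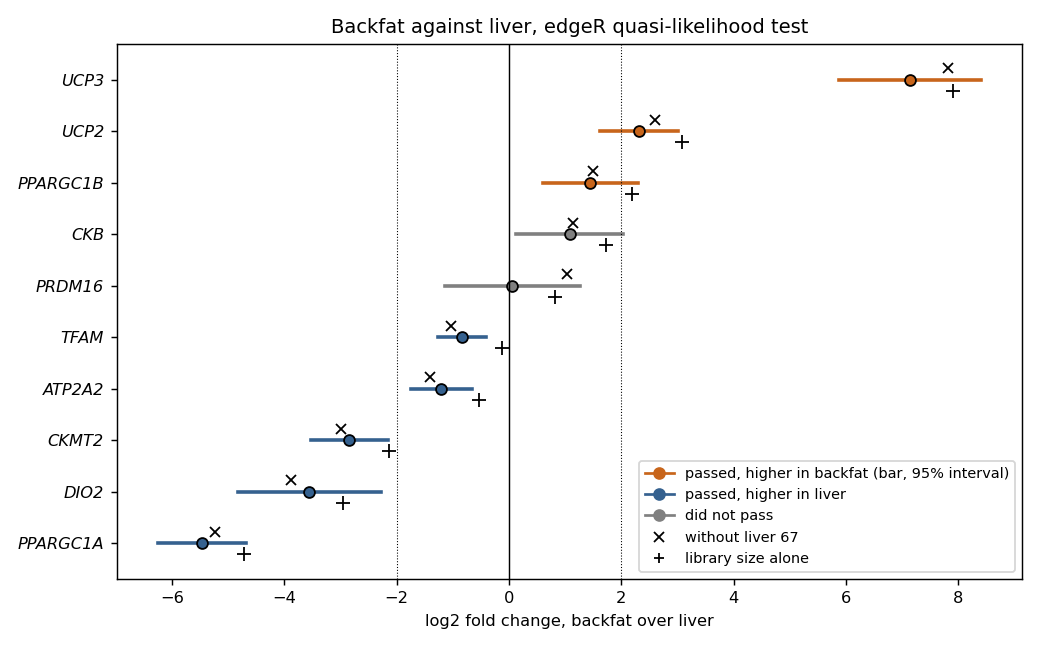
Log2 fold change of backfat over liver for the 10 genes by edgeR's quasi-likelihood test (circles) with 95% intervals (bars); crosses give the value without liver 67 and plus signs the value with library size alone. UCP3 lies at 7.14 and PPARGC1A at -5.47, PRDM16 moves from 0.06 to 1.03 without liver 67, and TFAM and ATP2A2 move to -0.13 and -0.54 with library size alone.

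The creatine kinases of the list are CKB, the cytosolic brain form that fat cells also use, and CKMT2, the mitochondrial form of muscle. CKB was 25.4, 21.2, 29.9, 78.9 and 77.8 CPM in the backfat of boars 65, 67, 69, 71 and 72 and 16.9, 27.4, 31.1, 8.50 and 26.4 CPM in liver. Backfat fell into 3 libraries within the liver range and 2, of boars 71 and 72, well above it. Those 2 were the backfat libraries with the fewest skeletal muscle markers, at 32.7 and 14.3 CPM against 120 to 428 CPM, and the part of this in the CKB level was not tested. The log2 fold change was 1.08 ± 0.44, with a 95% interval of 0.13 to 2.03, and did not pass (edgeR quasi-likelihood test, adjusted p = 0.0532), nor did it without liver 67 (1.14 ± 0.48, adjusted p = 0.0611). DESeq2 placed it past the threshold, at 1.07 with an adjusted p of 0.0368.

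CKMT2 was low in both tissues and higher in liver, at 0.44, 0.47, 0.86, 0.59 and 0.36 CPM in backfat and 4.31, 2.81, 3.67, 4.11 and 4.72 CPM in liver. No library of either tissue reached into the range of the other. It was 7.18-fold higher in liver, a log2 fold change of -2.84 ± 0.32 (edgeR quasi-likelihood test, adjusted p = 8.84e-06), and -2.99 ± 0.29 without liver 67. CKMT2 was lowest of the livers in liver 67, where the muscle markers were highest, and the part of muscle RNA in its level was not tested. In every library CKB was the higher of the pair per kilobase of exon, between 139 and 860 times in backfat and between 8.23 and 38.8 times in liver. These ratios fell to 47.7 to 296 and 2.83 to 13.4 with the longest RefSeq transcript as the length.

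Of 5 tested genes around creatine, 3 passed higher in liver and 2 did not pass, while leaving out liver 67 gave 4 higher in liver and 1, CKM, higher in backfat. GATM and GAMT, which make creatine from arginine, glycine and a methyl donor, had log2 fold changes of -4.00 ± 0.57 and -4.83 ± 0.31 (edgeR adjusted p = 7.02e-05 and 8.89e-08). ALPL, a phosphatase that hydrolyses phosphocreatine in the mitochondria of thermogenic fat, was 0.91 ± 0.51 CPM in backfat and 106 ± 33.0 CPM in liver, a log2 fold change of -6.87 ± 0.44 (edgeR adjusted p = 9.38e-08). The creatine transporter SLC6A8 had -0.46 ± 0.21 and did not pass (edgeR adjusted p = 0.0751), but was -0.64 without liver 67 (edgeR adjusted p = 0.00483). CKM, the muscle creatine kinase, had 2.43 ± 1.41 (edgeR adjusted p = 0.162), and with the boar as replicate block 4.98 (edgeR adjusted p = 0.0156). Without liver 67 it was 7.06 (edgeR adjusted p = 1.34e-04). It was 28.9 CPM in liver 67 and at most 0.38 CPM in the other livers.

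ATP2A2, which encodes the calcium pump SERCA2 of the endoplasmic reticulum, was steady across backfat and higher in liver. It was 44.6, 42.1, 37.2, 43.4 and 44.0 CPM in backfat, a coefficient of variation of 7.08%, and 128, 48.5, 141, 81.5 and 86.2 CPM in liver, for boars 65, 67, 69, 71 and 72. The lowest liver, liver 67, was just above the highest backfat. Liver was higher within all 5 boars, though only slightly in boar 67. The fitted difference between the tissues, which ignores the boars, was 2.30-fold. Its log2 fold change was -1.20 ± 0.25 (edgeR quasi-likelihood test, adjusted p = 0.00137), and -1.40 ± 0.18 without liver 67. With library size alone it was -0.54 and did not pass (edgeR adjusted p = 0.140).

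Of 16 tested genes in the calcium store list 6 passed higher in backfat, 2 higher in liver and 8 did not pass. With library size alone 10 passed higher in backfat and 1 higher in liver, where 50.5% and 14.3% of all tested genes did. The release channels RYR2 and ITPR2 were higher in backfat, with log2 fold changes of 2.85 ± 0.57 and 2.05 ± 0.28 (edgeR adjusted p = 0.00104 and 5.70e-05), and RYR2 was 3.44 without liver 67. CALR, the calcium-binding chaperone of the store, and STIM1, its calcium sensor, were higher in liver, at -1.82 ± 0.24 and -1.10 ± 0.19 (edgeR adjusted p = 4.16e-05 and 2.77e-04), and STIM1 reached -0.39 with library size alone, where it did not pass (edgeR adjusted p = 0.171). The sister pumps did not pass. ATP2A1, the pump of fast muscle fibres, had -0.62 ± 0.92 and ATP2A3 had -0.17 ± 0.37 (edgeR adjusted p = 0.589 and 0.720), and each was highest in liver 67, at 10.6 and 71.4 CPM.

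**Figure D5:**
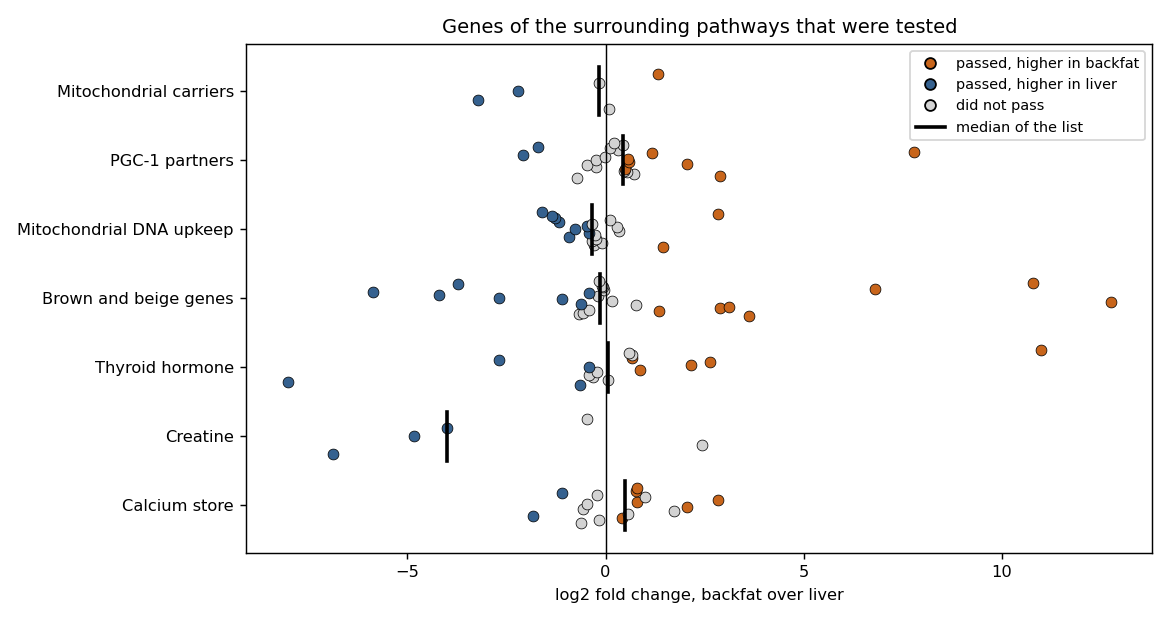
Log2 fold change of backfat over liver for the tested genes of 7 surrounding lists, coloured by whether edgeR's quasi-likelihood test was passed, with a bar at each list's median. In the mitochondrial DNA list 8 of 19 passed towards liver and 2 towards backfat. In the creatine list 3 of 5 passed, all towards liver. Of all tested genes 27.0% passed towards liver and 28.0% towards backfat. EBF2, ZIC1 and TSHR, at the far right, have at most 1 count in liver, so their plotted values depend on the fit and are no measured fold.

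Set against each other per kilobase of exon, the members kept different orders in the 2 tissues. In backfat UCP2 led with 44.4 ± 13.6 CPM per kb (SD, n = 5), followed by UCP3 at 25.7 ± 7.17 and CKB at 24.3 ± 15.1, and the libraries of these neighbours overlapped. ATP2A2 at 7.54 ± 0.53 and TFAM at 7.38 ± 0.54 CPM per kb came next, with overlapping libraries, below every library of CKB. Lower still were PPARGC1B at 1.48 ± 0.88, DIO2 at 0.43 ± 0.21 and PRDM16 at 0.34 ± 0.09, each overlapping the next, and last CKMT2 at 0.071 ± 0.025 and PPARGC1A at 0.039 ± 0.014 CPM per kb, which overlapped each other. In liver the order of levels was ATP2A2 (17.4 ± 6.72 CPM per kb), TFAM (13.2 ± 3.50), CKB (11.5 ± 4.79), UCP2 (8.93 ± 4.26), DIO2 (5.10 ± 3.58) and PPARGC1A (1.75 ± 0.72), with each overlapping the next. A step without overlap separated PPARGC1A from PPARGC1B (0.54 ± 0.10), CKMT2 (0.51 ± 0.10), PRDM16 (0.32 ± 0.37) and UCP3 (0.18 ± 0.18 CPM per kb). PPARGC1A was thus last of 10 in backfat and UCP3 last of 10 in liver. With the longest RefSeq transcript as the length, both stayed in last place, TFAM moved above ATP2A2 in both tissues, CKB moved above UCP3 in backfat, and CKMT2 moved above PPARGC1B in liver. The step without overlap in liver then fell below CKMT2, whose libraries overlapped those of PPARGC1A, and in backfat TFAM overlapped both UCP3 and CKB.

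For each member the tested genes with the most similar pattern were found by Pearson's r of log2 CPM over the 10 libraries. Since these libraries share 5 per tissue, a high r mostly records the same tissue difference, and it is given as a description. UCP3 was closest to VIT and AQP3 (r = 0.993 for both), PPARGC1A to RPL3L (0.995) and ACP2 (0.994), and CKMT2 to C1orf210 (0.997) and TRMT9B (0.996). DIO2 went with SFXN1 (0.992) and CADPS2 (0.991), and UCP2 with ARHGEF2 (0.986). PPARGC1B, whose backfat level ran high in boars 65 and 72, was closest to ZFP1 (0.939) and to the immediate early genes DUSP1 (0.932) and FOS (0.929). TFAM was closest to TM2D3 (0.986) and ATP2A2 to SLC35D1 (0.989). The nearest gene to CKB was UBE2NL (0.931), and none of the 3 nearest to PRDM16 had a symbol.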

How the data were processed

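RNA-seq was made from backfat and liver of 5 boars, with 5 libraries per tissue, each assigned to a tissue by its labels and to a boar by the name of its count column. Per the file headers and the study's methods, the authors checked reads with FastQC, trimmed them with Trimmomatic, aligned them with HISAT2 to Sscrofa11.1 and counted read pairs on exons with featureCounts 2.0.1 (Ensembl release 99, no strand, multi-mapping reads left out), and the deposited values are raw counts, 43820042 to 61772737 per library. The labels give an age of 22 months and the study's methods another average.

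In R 4.3.3, edgeR 4.0.16 filtered genes with filterByExpr by tissue, scaled by TMM and fitted the quasi-likelihood test with tissue as the only term. Adjusted p-values are Benjamini-Hochberg values across the 16275 genes tested. The authors used DESeq2. SE was derived from the F statistic. The fit was tried on simulated counts in which few genes changed, in both directions, so this does not test the scaling between these tissues. Lengths are the exon unions of the count table. Gene names were matched by Ensembl identifier, and 12740 tested genes had a symbol. Motifs were searched on both strands of 250 bases before RefSeq starts, preferring curated transcripts.

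Same-numbered libraries come from the same boar. After removing tissue means, their correlation was 0.24, 0.11, 0.05, 0.16 and 0.098 for boars 65, 67, 69, 71 and 72. Alternatives were DESeq2 1.42.0, limma 3.58.1 (voom), DESeq2 size factors, library size alone, other filters, the boar as a block, leaving out libraries, and removing mitochondrial genes. The members, lists and alternatives were chosen with earlier results of these data known. All members were named, with up to 6 genes of each other list, those of largest change or needed by role. In the brown and beige list the remaining DEGs towards liver were named as well, and these were not followed singly through the alternatives. Bisulfite calls were not used. Some items of these lists are not reported here.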

Additional observations from a re-analysis of the deposited data

Results flagged for a closer look

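Each level was looked at for a library far from the other 4 of its tissue, by the gap to the nearest library over the range (Dixon's critical value for 5 libraries, 0.710). Chance marks about 1 in 20 when groups are independent and values normal. Here some groups share genes and some hold few or no counts, so that rate is only a rough guide. Of 120 groups of 5 libraries 20 were marked, and 11 of the marks were on liver 67. Among the members these were UCP2 at 27.5 CPM (other livers 9.07 to 13.2), PPARGC1A at 32.7 CPM (13.4 to 18.6) and PRDM16 at 6.59 CPM (0.84 to 1.55), each highest in liver 67. Liver 67 was the highest or lowest liver for 9 of the 10 members, and for 8 it lay towards backfat. The shares of all tested genes that do the same were not counted. PPARGC1A was the exception, being raised away from backfat.

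Other marks on liver 67 were the summed markers of skeletal muscle (214 CPM, others at most 5.69), heart muscle (10.3 CPM, at most 3.77) and red cells (1732 CPM, at most 368), CKM (28.9 CPM, at most 0.38), ATP2A1 (10.6 CPM, at most 1.27) and ATP2A3 (71.4 CPM, at most 23.6). TWNK (15.8 CPM, others at least 29.0) and ALPL (49.6 CPM, at least 114.7) were lowest there.

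The backfat of boar 69 stood out in hepatocyte markers (577 CPM, others at most 217), nerve and glia markers (63.3 CPM, at most 20.0), the mesothelium marker (0.49 CPM, at most 0.12) and RYR2 (8.48 CPM, at most 4.47), and was lowest in POLRMT (27.6 CPM, others at least 41.1). In the backfat of boar 65, lymphocyte markers reached 36.8 CPM (others at most 19.7), PPARA 10.4 CPM (at most 5.45) and ATP2A1 3.62 CPM (at most 1.54). EBF2 had 0.021 CPM, a single count, in the liver of boar 69 and none in the other livers.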

How the results depend on the processing

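UCP2, UCP3, PPARGC1A, PPARGC1B, DIO2 and CKMT2 passed the test in the same direction under every alternative that fitted them, and UCP3 was not fitted with at least 10 counts in every library. With the boar as replicate block no member's call changed (PPARGC1B 1.24, adjusted p = 0.0263 by edgeR), and among the other named genes CKM passed. With library size alone TFAM was -0.13 and ATP2A2 -0.54, neither passing, CKB passed at 1.72, and DEGs towards backfat rose from 1813 to 2874. With at least 10 counts in every library, where 13026 genes were tested, DEGs were 871 towards backfat and 981 towards liver, against 1813 and 1819.

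CKB also passed with DESeq2 (1.07) and without liver 67 and backfat 69 (1.29). Leaving out 1 library gave 0.81 to 1.27, and it passed in 4 of 10 such fits (without backfat 65, 67 or 69, or liver 69). PRDM16 ran from -0.18 to 1.03 and passed only without liver 67, and at 0.91 without liver 67 and backfat 69, and DESeq2 gave it no adjusted p. The cause was not tested.

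Reversals touched only genes that did not pass in the main comparison. With library size alone the values were SLC25A5 0.43, ADRB3 0.046, SLC6A8 0.27, ATP2A1 0.22 and ATP2A3 0.60. With limma-voom they were SLC25A5 0.012, ATP2A1 0.74 and ATP2A3 0.020, and with the replicate block 0.0053, 0.82 and 0.027. Without liver 67 and backfat 69, ATP2A1 was 1.53 and ATP2A3 0.28. Leaving out 1 library gave SLC25A5 -0.39 to 0.12, DIO3 -0.12 to 0.18, ATP2A1 -1.09 to 1.42 and ATP2A3 -0.33 to 0.35. UCP3 in liver (1 to 35 counts a library) and PPARGC1A in backfat (17 to 54) are limited by depth.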
